A study of Mus musculus with 3 samples.

Results

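Fc receptors bind the constant part of antibodies, and the activating ones reach the inside of the cell through a motif of the immunoreceptor tyrosine-based activation type (ITAM), carried by a small adapter. Src-family kinases phosphorylate the ITAM, the kinase Syk docks on it, and phagocytosis, oxidative burst and cytokine release follow. Receptors with an inhibitory motif (ITIM) recruit phosphatases and oppose the signal. The genes described here are 10 of this system: the activating Fcγ receptors *Fcgr1*, *Fcgr3* and *Fcgr4* with their adapter *Fcer1g*, the inhibitory receptors *Fcgr2b*, *Pirb* and *Lilrb4*, the receptor *Trem1* with its adapter *Tyrobp* (DAP12), and *Syk*. They were found by gene name among the gene probes of the arrays. Of the 10 genes, 9 were found, with 16 of the 56605 gene probes, and these are 9 of the 26840 genes with a symbol. *Lilrb4* labels no probe there, and the array uses the current names *Lilrb4a* and *Lilr4b* for that pair of neighbours, which are given below as genes outside the rule.

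The RNA came from RAW macrophages, a mouse macrophage line, so all groups share 1 line without T cells, B cells or any other partner. There was 1 one-colour array for each of 3 conditions: LPS alone, *L. rhamnosus* CRL1505 followed by LPS (CRL1505 + LPS), and *L. plantarum* CRL1506 followed by LPS (CRL1506 + LPS). Lactobacilli were given for 24 h at 50000000 cells/mL, and LPS, the ligand of TLR4, at 50 ng/mL for 12 h by the methods or 3 h by the sample descriptions. All 3 groups therefore received LPS, every ratio sets one LPS-treated culture against another, and unstimulated cells were not analysed here. The arrays measured RNA of whole cultures, in which fewer cells of a type and less RNA per cell cannot be told apart.

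Each condition had a single array, so no difference has a replicate check and none was tested. A value is the log2 processed signal minus the 75th percentile of the array, written either as that or as the signal in multiples of the percentile, and it can be compared between arrays for 1 probe but not between probes. A gene was read at its brightest probe and counted at a ratio of at least 2-fold, a log2 ratio of 1. The SD of the log2 ratio over repeated spots of a probe had a median between 0.043 and 0.048, which covers a single hybridisation only, and the SD between probes of a gene had a median of 0.228 for CRL1505 against LPS, 0.215 for CRL1506 against LPS and 0.323 between the strains. Both strains were compared with the same LPS array. LPS and CRL1506 + LPS were hybridised on a common slide and CRL1505 + LPS on a different one, so strain and slide cannot be told apart in the comparisons of CRL1505 + LPS. Its 75th percentile lay 0.52 below that of LPS on the log2 scale, while its spike-in probes differed by -0.02, and the scaling therefore matters most there: the median log2 ratio of all genes in CRL1505 against LPS was 0.01, but 0.33 after a shift by medians and -0.48 after scaling to the spike-in probes. Of the genes counted in that comparison, 54.4% were higher, against 76.2% and 20.2% under these scalings. For CRL1506 against LPS the share was 61.6%, against 43.5%, 51.1% and, after quantile normalization, 51.6%. Between the strains it was 54.9%, against 89.2%, 24.3%, 66.0% after cyclic loess and 39.5% with a percentile over detected probes. All 11 macrophage markers on the array were well above background in each condition, with a summed level of 830 to 997 times the percentile. Within that sum, *Adgre1*, which encodes F4/80, read 6.11 times the percentile in LPS, 29.5 times in CRL1505 + LPS and 12.3 times in CRL1506 + LPS. *Csf1r*, the receptor for M-CSF, was at log2 ratios of -1.47 with CRL1505 and -0.87 with CRL1506. The part of these differences in the values of the Fc receptors was not tested. Of the markers of other cells, 4 of 6 were above background for T cells on each array, 2 or 3 of 5 for B cells, 1 or 2 of 5 for NK cells, 2 or 3 of 8 for mast cells or basophils and 5 or 6 of 8 for neutrophils. Their summed levels were 2.93 to 3.05, 0.158 to 0.447, 0.411 to 0.425, 0.648 to 2.01 and 2.38 to 3.52, which serve to compare the arrays and not the cell types. Of the neutrophil markers, *S100a9* was well above background in CRL1505 + LPS alone, at a log2 ratio of at least 3.18 to LPS, and *S100a8* was at -1.31 there. The highest mast cell sum, in CRL1505 + LPS, was almost all *Hdc*, the histidine decarboxylase gene, at 1.94, while *Fcer1a*, *Ms4a2* and *Cpa3* did not clear the background in any condition. Between 48.5% and 55.3% of gene spots were well above background per array.

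In CRL1505 + LPS, 3 of the 9 genes were at least 2-fold higher than in LPS alone, namely *Fcgr1*, *Fcgr4* and *Syk*, where 9.95% of all 15573 genes compared were, and *Trem1* was at least 2-fold lower, where 8.33% of all genes were. In CRL1506 + LPS none was 2-fold higher (5.67% of 16277 genes were), and *Fcgr3* was 2-fold lower (3.53% of genes). The median log2 ratio of the 9 genes was 0.57 for CRL1505 and 0.02 for CRL1506, beside 0.01 and -0.06 over all genes. Between the strains, *Fcgr1* and *Fcgr4* were at least 2-fold higher in CRL1505 + LPS (9.03% of 15756 genes were), and none was 2-fold lower (7.41% of genes). The log2 ratio between the strains was above 0 for 8 of the 9 genes, where 7831 of all 15756 genes lay above the *Pirb* value of 0.03. For *Pirb* and *Tyrobp*, at 0.03 and 0.11, it was below 0 under every other normalization except the median shift, down to -0.35 and -0.27. For *Syk*, at 0.40, 1 of the 4 probes was above 0 and 3 were below.

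**Figure D1:**
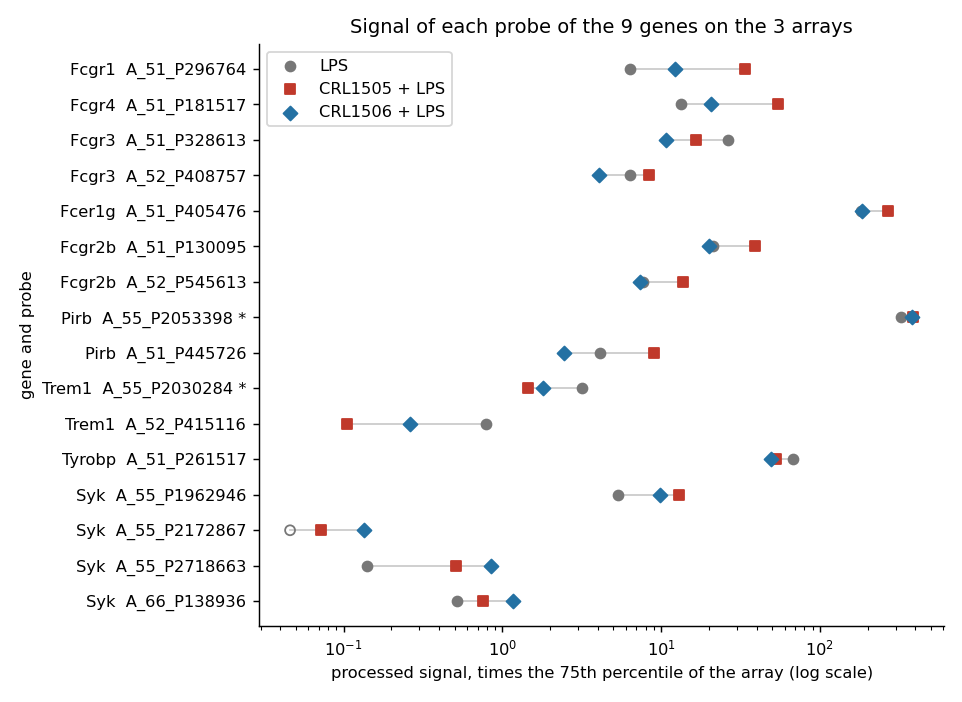
Signal of each of the 16 probes on the 3 arrays, in multiples of the 75th percentile of the array on a log scale; open marks were not well above background, and an asterisk marks probes that share at least 18 bases with probes of other genes. The probes of *Fcgr1* and *Fcgr4* were brightest in CRL1505 + LPS, intermediate in CRL1506 + LPS and dimmest in LPS, while both *Trem1* probes were brightest in LPS.

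The activating receptors differed in direction at their brightest probes. *Fcgr1* encodes the high-affinity receptor for IgG. Its only probe (chr3:96088462-96088521 on mm9, minus strand) read 6.36 times the 75th percentile in LPS, 33.6 times in CRL1505 + LPS and 12.3 times in CRL1506 + LPS. The level was thus highest with CRL1505, with CRL1506 between it and LPS. The ratio to LPS was 5.28-fold for CRL1505, a log2 ratio of 2.40 that 298 of the 15573 genes exceeded, and 1.93-fold for CRL1506, a log2 ratio of 0.95. Over 7 other normalizations the log2 ratio ran from 1.89 to 2.70 for CRL1505 and from 0.75 to 1.05 for CRL1506, and in 4 of the 7 the gene passed 2-fold with CRL1506 too. Between the strains *Fcgr1* was 2.74-fold higher with CRL1505, and the log2 ratio of 1.45 ran from 1.07 to 1.95.

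*Fcgr4* encodes an activating receptor of intermediate affinity found on mouse monocytes, macrophages and neutrophils. Its only probe (chr1:172959738-172959797 on mm9, plus strand) read 13.4 times the percentile in LPS, 54.3 times in CRL1505 + LPS and 20.6 times in CRL1506 + LPS. The order of the arrays was that of *Fcgr1*. The ratio to LPS was 4.04-fold for CRL1505 (log2 ratio 2.02, from 1.51 to 2.31 over the normalizations) and 1.54-fold for CRL1506 (0.62, from 0.42 to 0.74). With CRL1505 it was 2.63-fold higher than with CRL1506, with a log2 ratio of 1.40 and a range of 1.01 to 1.89.

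*Fcgr3* encodes the low-affinity activating receptor, and its 2 probes gave different pictures with CRL1505. The brighter probe (chr1:172981647-172981722 on mm9) read 26.4 times the percentile in LPS, 16.6 times in CRL1505 + LPS and 10.7 times in CRL1506 + LPS. The dimmer one (chr1:172984129-172984188) read 6.36, 8.37 and 4.09 times. Both probes were lowest in CRL1506 + LPS, while CRL1505 + LPS lay below LPS on the brighter probe and above it on the dimmer one. The log2 ratio for CRL1505 was -0.67 on the brighter probe and 0.40 on the other, a gap of 1.06, and SDs between probes at least as large were found in 11.7% of the 6451 genes with several probes compared. For CRL1506 the probes gave -1.30, a 2.46-fold lower level, and -0.64. The brighter probe passed 2-fold for CRL1506 under all 7 other normalizations, from -1.50 to -1.19. Between the strains both probes were higher with CRL1505, by 0.63 and 1.03.

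*Fcer1g* encodes the common γ chain, the ITAM adapter that *Fcgr1*, *Fcgr3* and *Fcgr4* products need at the cell surface. Its probe (chr1:173159794-173159853 on mm9) read 183 times the percentile in LPS, 271 times in CRL1505 + LPS and 186 times in CRL1506 + LPS. LPS and CRL1506 + LPS were alike in level, with a log2 ratio of 0.02 that ran from -0.18 to 0.19 over the normalizations, and CRL1505 + LPS was 1.48-fold higher than LPS, with a log2 ratio of 0.57 that ran from 0.06 after scaling to the spike-in probes to 0.86 after the median shift. It did not reach 2-fold against LPS under any of these.

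Of the genes above, all but *Fcgr1* share chromosome 1 with *Fcgr2b*. On GRCm38 the RefSeq genes *Fcgr2b* (chr1:170960558-170976071), *Fcgr4* (chr1:171018926-171029761), *Fcgr3* (chr1:171051169-171065915) and *Fcer1g* (chr1:171229572-171234349) lie in this order on chromosome 1. Their log2 ratios for CRL1505 at the brightest probe were, in that order, 0.87, 2.02, -0.67 and 0.57. The dimmer *Fcgr3* probe was at 0.40. *Fcgr1* lies apart on chromosome 3.

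The upstream sequences of *Fcgr1* and *Fcgr4*, the receptors with the highest ratios for CRL1505, and of *Trem1*, the gene that was at least 2-fold lower, are shown to set them side by side. The sequences are RefSeq's for GRCm38.p6, the 250 bases before an annotated transcript start, written 5′ to 3′ on the gene's strand. For *Trem1*, *Fcgr3* and *Syk* that start lies inside the span RefSeq gives the gene. Capitals mark matches, on both strands, to the letters TTCNNNGAA (the GAS element bound by STAT dimers), the letters GAAA, any 2 bases and GAAA (the core of the interferon-stimulated response element, ISRE), and GAGGAA (the core bound by the macrophage factor PU.1).
Fcgr1, chr3:96293970-96294219, minus strand: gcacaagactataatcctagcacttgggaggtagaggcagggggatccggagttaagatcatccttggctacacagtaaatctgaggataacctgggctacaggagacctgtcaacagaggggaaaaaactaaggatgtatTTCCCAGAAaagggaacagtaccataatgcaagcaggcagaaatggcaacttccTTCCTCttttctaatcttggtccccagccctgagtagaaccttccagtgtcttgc
Fcgr4, chr1:171018676-171018925, plus strand: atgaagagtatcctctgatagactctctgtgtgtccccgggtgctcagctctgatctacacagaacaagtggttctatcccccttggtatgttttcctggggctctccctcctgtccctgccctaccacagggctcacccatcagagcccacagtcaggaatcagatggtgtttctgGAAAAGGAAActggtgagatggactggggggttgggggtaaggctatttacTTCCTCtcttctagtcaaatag
Trem1, chr17:48232489-48232738, plus strand: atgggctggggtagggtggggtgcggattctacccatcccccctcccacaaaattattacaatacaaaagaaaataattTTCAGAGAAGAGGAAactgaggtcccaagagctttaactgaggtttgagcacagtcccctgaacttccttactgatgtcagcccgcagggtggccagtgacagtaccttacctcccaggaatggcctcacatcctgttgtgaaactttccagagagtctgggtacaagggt

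In *Fcgr1* the letters of a GAS began 109 bases before the transcript start, as TTCCCAGAA, and in *Fcgr4* those of an ISRE core began 73 bases before it, as GAAAAGGAAA. *Trem1*, which was lower, also held a GAS, TTCAGAGAA, 171 bases before the transcript start used, with a GAGGAA directly after it. Such matches are a description of the letters and no evidence of binding. Of 32851 RefSeq promoters of the same length, 7.02% held TTCNNNGAA, 2.98% the ISRE core and 23.3% GAGGAA. Promoters were matched for 8 of the 10 genes. Those of *Fcgr2b*, *Fcer1g*, *Fcgr3*, *Pirb* and *Syk* held neither a GAS nor an ISRE core by these letters. GAGGAA was found in at least 1 promoter of *Fcgr3*, *Pirb* and *Syk*. *Fcgr1* and *Fcgr4* held it too, on the opposite strand as TTCCTC, beginning 55 and 22 bases before the transcript start.

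**Figure D2:**
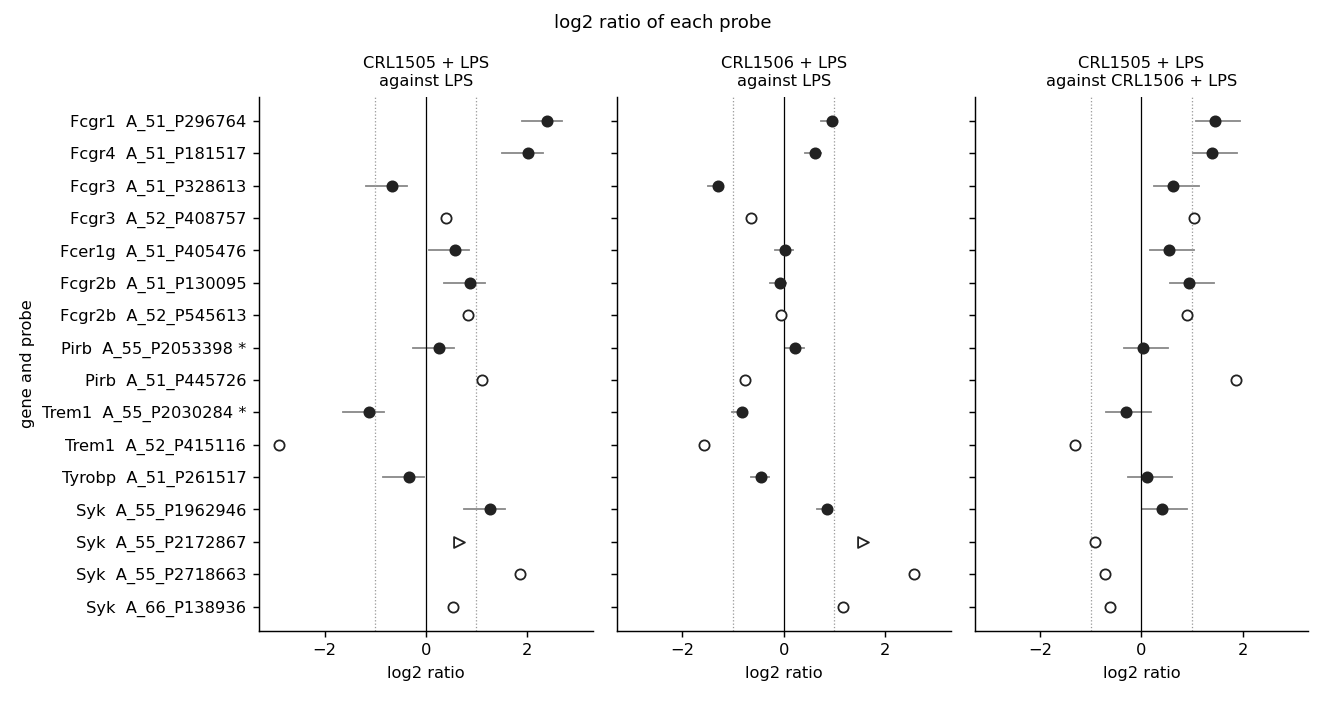
log2 ratio of each probe in the 3 comparisons; filled points are the brightest probe of a gene with the range over 7 other normalizations as a line, open points are its other probes, open triangles are lower bounds, dotted lines mark 2-fold, and an asterisk marks probes that share at least 18 bases with probes of other genes. The points of *Fcgr1* and *Fcgr4* lie beyond 2-fold to the right in the left and right panels, both probes of *Fcgr2b* coincide in each panel, and the probes of *Pirb*, *Trem1* and *Syk* spread.

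The inhibitory Fcγ receptor was higher with CRL1505 but below the threshold. *Fcgr2b* encodes the ITIM-bearing receptor that restrains the activating Fcγ receptors on the same cell. The brighter of its 2 probes (chr1:172890988-172891047 on mm9) read 21.2 times the percentile in LPS, 38.8 times in CRL1505 + LPS and 20.1 times in CRL1506 + LPS. CRL1505 + LPS was the high array and the others were alike. The log2 ratio was 0.87 with CRL1505 on this probe and 0.84 on the other (chr1:172895833-172895892), -0.08 and -0.06 for CRL1506, and 0.95 and 0.90 between the strains. *Fcgr2b* was thus 1.83-fold higher than LPS with CRL1505, under the 2-fold threshold, and passed it under 1 of 7 other normalizations, the median shift, in a range of 0.36 to 1.17. The gap between its probes was 0.03 for CRL1505, the smallest among the 5 genes with several probes.

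*Pirb* encodes the paired immunoglobulin-like receptor B, an inhibitory receptor of myeloid cells. Its brighter probe (chr7:3663046-3663105 on mm9) read 325 times the percentile in LPS, 388 times in CRL1505 + LPS and 379 times in CRL1506 + LPS, and the dimmer one (chr7:3664148-3664207) read 4.15, 8.97 and 2.45 times. The brighter probe was nearly level on all arrays, while on the dimmer one CRL1505 + LPS was the highest and CRL1506 + LPS the lowest. The log2 ratios were 0.26 and 1.11 for CRL1505, 0.22 and -0.76 for CRL1506, and 0.03 and 1.87 between the strains. Between the strains the SD over this pair of probes, 1.30, was reached by 5.06% of the 6627 genes with several probes compared.

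The letters of the probes differed in kind. A stretch of 30 bases from each is shown, with capitals marking in the brighter probe 18 bases that 14 probes of other genes also hold, and in the dimmer one the polyadenylation signal AATAAA.
Pirb, brighter probe, bases 25 to 54 of 60: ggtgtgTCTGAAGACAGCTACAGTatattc
Pirb, dimmer probe, bases 31 to 60 of 60: agtaacatcagagtttgtaAATAAAgctag
The brighter *Pirb* probe shared 18 or more consecutive bases with probes of 25 other genes, up to 33 bases. Of all gene probes, 5.46% shared so long a stretch with a probe of another gene name. The 25 probes were well above background on each array, and their log2 ratios ran from -0.02 to 0.46 with a median of 0.19 for CRL1505, from 0.07 to 0.94 with a median of 0.29 for CRL1506, and from -0.53 to 0.08 with a median of -0.14 between the strains. The values of the brighter *Pirb* probe, 0.26, 0.22 and 0.03, lay inside these ranges, and those of the dimmer probe, which shared no such stretch, lay outside each of them. What part of the brighter probe's signal comes from other transcripts was not tested.

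*Lilrb4a* and *Lilr4b*, which both lie on chromosome 10, encode an inhibitory receptor and its paired relative. The *Lilrb4a* probe (chr10:51216160-51216219 on mm9) read 134 times the percentile in LPS, 208 times in CRL1505 + LPS and 159 times in CRL1506 + LPS, with log2 ratios of 0.63 and 0.25 to LPS. The *Lilr4b* probe read 4.06, 3.56 and 5.74 times, with log2 ratios of -0.19 and 0.50. In *Lilrb4a* the higher strain was CRL1505 and in *Lilr4b* CRL1506, and neither reached 2-fold.

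**Figure D3:**
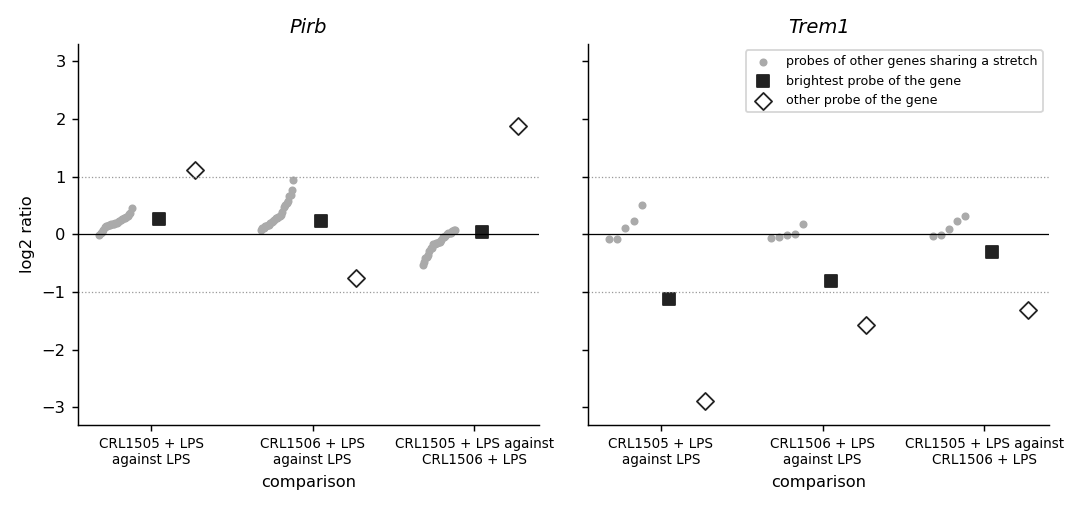
log2 ratio in the 3 comparisons of the brightest probe (square) and the other probe (diamond) of *Pirb* and *Trem1*, beside the probes of other genes that share at least 18 bases with the brightest probe (grey). The *Pirb* square lies among the grey points and its diamond away from them, while both *Trem1* probes lie below the grey points.

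On the DAP12 side, the receptor was lower and the kinase higher. *Trem1* encodes a receptor that amplifies TLR signals in neutrophils and macrophages. Its brighter probe (chr17:48385849-48385908 on mm9) read 3.16 times the percentile in LPS, 1.44 times in CRL1505 + LPS and 1.79 times in CRL1506 + LPS, and the dimmer one (chr17:48385230-48385289) read 0.786, 0.105 and 0.263 times. On both probes LPS was the highest array, CRL1506 + LPS the next and CRL1505 + LPS the lowest. The brighter probe was 2.18-fold lower with CRL1505 (log2 ratio -1.13, from -1.64 to -0.83 over the normalizations, 6 of 7 past 2-fold), and its log2 ratio for CRL1506 was -0.82, past 2-fold under 1 of 7. The dimmer probe gave -2.90, a 7.46-fold lower level, and -1.58. Between the strains the probes gave -0.31 and -1.32, and the former turned to 0.19 after the median shift.

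The brighter *Trem1* probe, too, holds letters that recur, here 36 bases of repeated TTG (capitals), of which 24 fall in the stretch shown.
Trem1, brighter probe, bases 12 to 41 of 60: cctgtgTTGTTGTTGTTGTTGTTGTTGTTG
It shared 18 or more bases with probes of 6 other genes, of which 5 could be compared. The log2 ratios of these 5 ran from -0.08 to 0.51 for CRL1505 and from -0.07 to 0.18 for CRL1506, so that both *Trem1* probes lay below them. Read at probes without shared stretches, an alternative added after seeing the data, *Pirb* and *Trem1* took the values of their dimmer probes. With CRL1505, 4 genes were then at least 2-fold higher than LPS (*Pirb* joining, 9.54% of genes) and 1 lower (8.44%). With CRL1506 none was higher (5.47%) and *Fcgr3* and *Trem1* were lower (3.55%). Between the strains *Fcgr1*, *Fcgr4* and *Pirb* were higher with CRL1505 (8.61%) and *Trem1* was lower (7.34%).

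*Tyrobp* encodes DAP12, the ITAM adapter of *Trem1* and of many other myeloid receptors. Its single probe, whose 60 bases are spread over chr7:31200651-31202378 on mm9, read 67.4 times the percentile in LPS, 53.2 times in CRL1505 + LPS and 49.2 times in CRL1506 + LPS. LPS was the highest array and the strains were close together. Relative to LPS it stood at -0.34 with CRL1505 and -0.45 with CRL1506 on the log2 scale, below 2-fold under all normalizations, with ranges of -0.85 to -0.04 and -0.65 to -0.29. The adapters thus differed in direction with CRL1505, *Fcer1g* lying above LPS and *Tyrobp* below it in the main values and under each of the 7 normalizations.

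*Syk* encodes the kinase that docks on phosphorylated ITAMs of both adapters. Its brightest probe (chr13:52744088-52744147 on mm9) read 5.38 times the percentile in LPS, 12.9 times in CRL1505 + LPS and 9.79 times in CRL1506 + LPS, that is 2.40-fold and 1.82-fold the level of LPS. The log2 ratio was 1.26 for CRL1505, from 0.75 to 1.56 and past 2-fold under 6 of 7 normalizations, and 0.86 for CRL1506, from 0.66 to 0.96. Its last 30 bases are shown because they hold the polyadenylation signal AATAAA (capitals), as the dimmer *Pirb* probe does.
Syk, brightest probe, bases 31 to 60 of 60: tttcagaaattattttaAATAAAgatctac
The other 3 *Syk* probes were dimmer and turned the order of the strains. The probe at chr13:52708988-52709047 read 0.141 times the percentile in LPS, 0.511 times in CRL1505 + LPS and 0.842 times in CRL1506 + LPS, and the one at chr13:52741275-52741334 read 0.516, 0.753 and 1.17 times. The last, at chr13:52738924-52738983, was not well above background in LPS, which gives log2 ratios of at least 0.65 and at least 1.56. All 4 probes were higher with both strains than in LPS, those measured on each array by 0.54 to 1.86 for CRL1505 and 0.86 to 2.58 for CRL1506 on the log2 scale. Between the strains the brightest probe was higher with CRL1505, by 0.40, and the other 3 were higher with CRL1506, at -0.91 to -0.63, and the mean over the probes was -0.47.

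**Figure D4:**
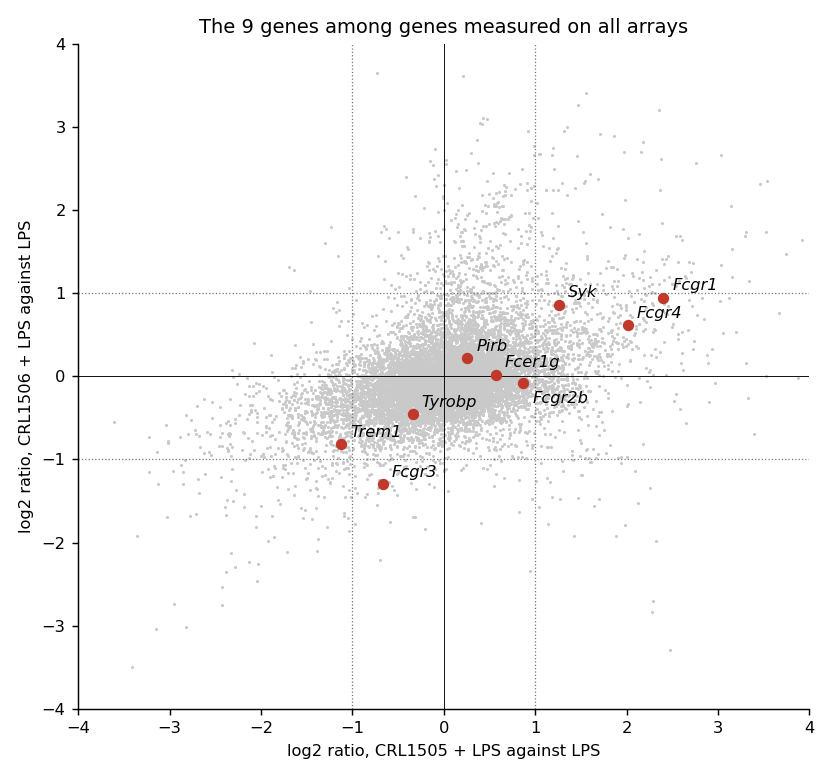
log2 ratio to LPS with CRL1506 (vertical axis) against that with CRL1505 (horizontal axis) for genes detected above background on every array (grey, 13110 drawn and 13 beyond the axes) and the 9 genes (red, brightest probe). *Fcgr1* and *Fcgr4* lie far to the right, *Syk* to the right of the dotted 2-fold line, and *Trem1* and *Fcgr3* at the lower left.

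Both axes of the plot of strain ratios use the same LPS array. Of 13123 genes detected above background on every array, the 3 nearest to *Fcgr1* in the plane of both log2 ratios were *Ifna5*, *Slfn4* and *Marco*, at distances of 0.08 to 0.11. The nearest to *Fcgr4* were *Ifit1*, *Agap1* and *Cyp4v3*, at 0.04 to 0.05, and those nearest to *Syk* were *Pts*, *Ankrd12* and *Cyfip2*, at 0.01 to 0.06. *Trem1* had *Tlr2*, *Rab3d* and *Cenpm* beside it, at 0.02 to 0.04. Within 0.228, the median SD between probes of a gene, lay 0.16% of the genes for *Fcgr1*, 0.30% for *Fcgr4*, 0.11% for *Fcgr3*, 0.56% for *Trem1* and 0.34% for *Syk*, while *Fcer1g*, *Pirb*, *Tyrobp* and *Fcgr2b* lay where genes were dense, with 7.72%, 8.59%, 5.36% and 3.33%.

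Of 6 lists of other genes in the pathway, 143 genes were on the array. Other receptors for antibodies were few and mixed. Of 13 other Fc receptors, 6 were compared for CRL1505, with 1 at least 2-fold higher and 2 lower (median log2 ratio 0.28), and 8 for CRL1506, with 3 higher and 2 lower (0.36). *Trim21*, the cytosolic antibody receptor, was at 1.66 with CRL1505 and 0.06 with CRL1506. *Pigr*, which carries polymeric immunoglobulin across epithelia, had the opposite order, at 0.57 and 1.86, and *Fcgrt*, the neonatal Fc receptor, was lower with both, at -1.06 and -1.01. The Fc receptor-like genes *Fcrl5* and *Fcrl1* were below 2-fold where the naming rule took them, *Fcrl5* at 0.10 and -0.34 and *Fcrl1* at 0.67 with CRL1506. *Fcrls* and *Fcrl6*, named after their values were seen, were well above background in CRL1506 + LPS alone, at 0.331 and 0.108 times the percentile. They count as higher there, at log2 ratios of at least 2.88 and 1.27. *Fcamr*, well above background in LPS alone at 0.119 times, counts as lower with both strains. Over the normalizations, 2 to 3 were higher and 0 to 2 lower with CRL1506.

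Of the other ITAM adapters and ITAM-coupled receptors, 35 were compared for each strain. With CRL1505, 3 were at least 2-fold higher and 7 lower, with a median of 0.00, and with CRL1506, 2 were higher and 3 lower, with a median of -0.06. The number lower with CRL1505 ran from 5 to 11 over the normalizations. *Clec7a*, the β-glucan receptor Dectin-1, was lower with both strains, at -1.79 and -1.53, and *Klrk1*, which encodes NKG2D, was higher with both, at 2.47 and 1.19, though its level in LPS was only 0.06 times the percentile. *Treml4* was at -2.54 with CRL1505 and *Treml2* at 1.61. *Treml2* and *Treml1*, the latter at -1.36 with CRL1505, stand in this list and its counts although neither is established as ITAM-coupled. With CRL1506, *Cd79b*, a chain of the B cell receptor, was at -1.21 and *Sirpb1b*, a DAP12-coupled receptor, at 1.88. With CRL1505 they were at -1.93 or lower and at 1.47. Their levels in LPS were low too, at 0.222 and 0.112 times the percentile. *Cd200r4*, named after its values were seen, was well above background in LPS alone, and its log2 ratio was -3.46 or lower with CRL1505 and -3.74 or lower with CRL1506.

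Of the Src, Syk and Tec families, 12 were compared for CRL1505, with 2 at least 2-fold higher and 2 lower (median -0.09), and 11 for CRL1506, with none higher and 1 lower (-0.11). *Lck* was at 1.46 and 0.52 and *Lyn*, the kinase that phosphorylates ITAMs and ITIMs in myeloid cells, at 0.93 with CRL1505. *Yes1* was at -1.01 and *Tec* at -0.92 with CRL1505. With CRL1506 *Fgr* was at -1.58 (-1.97 or lower with CRL1505), *Tec* at -0.75 and *Bmx* at 0.77. In LPS, *Yes1*, *Fgr* and *Bmx* were dim, at 0.292, 0.227 and 0.164 times the percentile.

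Downstream of *Syk*, 35 adapters and effectors were compared for each strain. In the main values 2 were at least 2-fold higher and 1 lower with each, with medians of -0.03 and -0.15. Over the normalizations, 0 to 5 were higher and 1 to 11 lower with CRL1505. For CRL1506 the ranges were 0 to 2 and 0 to 1. With CRL1505 the adapter *Blnk* was at 1.32 and *Malt1*, the paracaspase of the Card9 complex, at 1.19, while the transcription factor *Nfatc2* was at -1.56 and *Vav3*, a guanine nucleotide exchange factor, at -0.92. With CRL1506 the adapter *Lat* was at 1.13 and *Pik3ca* at 1.08, and the lowest measured on both arrays, *Prkcd* and *Pik3r5*, were both at -0.57. None of these effectors was named for both strains by the rule.

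Of the other ITIM receptors, 18 were compared for each strain, with 1 at least 2-fold higher and 3 lower for CRL1505 (median 0.02) and 4 higher and none lower for CRL1506 (-0.23). *Siglec1*, a sialic acid-binding receptor of macrophages, was higher with both strains, at 1.20 and 1.67. It stands in this list and in its counts although it carries no ITIM, and the motif was not checked for the other genes, *Clec4a1* included. *Cd300a* was at -1.48 and -0.91. *Lair1*, a collagen receptor, was at -1.38 with CRL1505 and *Clec4a1* at 0.88, and with CRL1506 *Cd300lf* was at 1.95 and *Pdcd1*, which encodes PD-1, at -0.99. Of the phosphatases and brakes, 21 were compared for each strain, with 2 higher and 1 lower for CRL1505 (-0.09) and 1 higher and 1 lower for CRL1506 (-0.04). *Inpp5d*, the inositol phosphatase SHIP1 that *Fcgr2b* recruits, was at -1.39 with CRL1505, *Tnfaip3*, the ubiquitin-editing enzyme that limits NF-κB, at 1.11, *Ubash3b* at 1.08 and *Dok2* at -0.91. With CRL1506, *Pag1*, the membrane anchor of the kinase Csk, was at 1.74, *Ptpn22* at 0.33, *Dok2* at -0.65 and *Inppl1* at -1.05. The level of *Pag1* in LPS was 0.185 times the percentile.

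**Figure D5:**
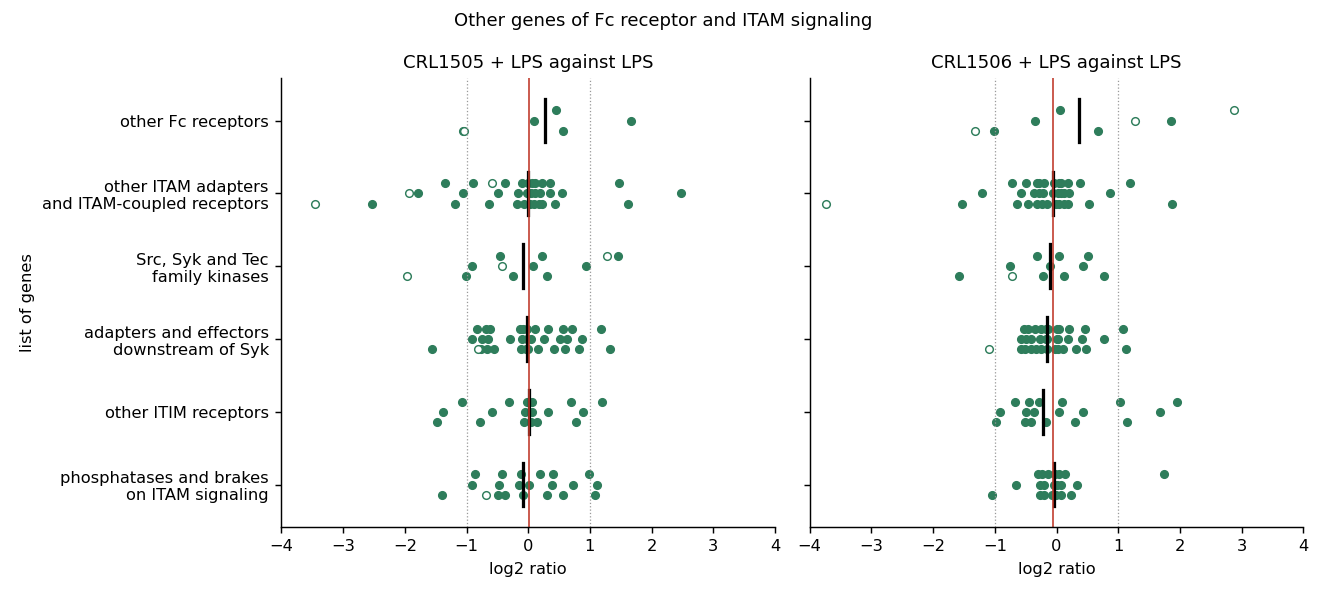
log2 ratio to LPS of the genes of 6 pathway lists with CRL1505 (left) and CRL1506 (right); filled points were well above background on both arrays, open points are bounds, black bars are list medians, the red line is the median of all genes and dotted lines mark 2-fold. Medians lie between -0.23 and 0.36, and most points lie within 2-fold of LPS.

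Beside these lists, 18.3% of all genes compared for CRL1505 and 9.2% for CRL1506 were at least 2-fold from LPS in either direction. The corresponding shares were 50.0% of 6 and 62.5% of 8 for the other Fc receptors, bounds of dim probes included. For the list of ITAM adapters and ITAM-coupled receptors, *Treml1* and *Treml2* included, they were 28.6% and 14.3% of 35. For the kinases they were 33.3% of 12 and 9.09% of 11. The shares were 8.57% of 35 with either strain for the effectors downstream of *Syk*, and 14.3% and 9.52% of 21 for the phosphatases and brakes. For the list of other ITIM receptors, *Siglec1* included, they were 22.2% of 18 with either strain.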

How the data were processed

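RNA of RAW macrophages was hybridised to 1 one-colour array for each of 3 conditions. The authors deposited for each array the intensity of every spot from Feature Extraction (version 12.0.3.1 per the file headers), with background subtracted and no normalization between arrays, and a table of normalized log2 values of the same spots, whose median was 6.77 on each array. For the main values, each array's 75th percentile over gene spots was subtracted from its log2 intensities, outlier spots were left out, repeated spots averaged and a gene read at its brightest probe. Where one side was not well above background, it was replaced by the dimmest signal called above background on that array, or by its own signal if higher, and the ratio is a bound. The number of arrays limits the precision, and no test was run. Of the 48 spot readings of the genes described, 47 were well above background, none was an outlier and none was uneven.

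The genes, the pathway lists and the cell type markers were chosen with earlier results of these data known. From each list, the text names the 2 highest and 2 lowest log2 ratios per strain among genes well above background on both arrays, and for genes past 2-fold the 3 nearest by both ratios, which for *Fcgr3* are not reported here. Probe positions are on mm9, as the files give them, and upstream sequences on GRCm38.p6, so no probe was placed in an exon or untranslated region. Alternatives were 7 other normalizations, 2 other filters on dim probes, the mean over probes, outlier spots kept, uneven spots left out, and thresholds of 1.5-fold and 4-fold. Leaving out probes that share 18 bases with a probe of another gene name was added after seeing the data, as were all alternatives for the pathway lists between the strains. Normexp (offset 50), quantile and cyclic loess normalization came from limma 3.58.1 in R 4.3.3. All other steps ran in Python 3.11.15 (NumPy 2.4.6, pandas 2.3.3). Of these, the percentile shift, the averaging of spots, the choice of probe and the ratios were first tested on simulated data.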

Additional observations from a re-analysis of the deposited data

How the results depend on the processing

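Of 351 values of the 9 genes under other settings, 296 stayed within the spread between probes, 20 changed sign and, of 91 that belong to a ratio past 2-fold, 3 fell under it. None of the ratios past 2-fold changed sign. Counts of the 9 genes changed as follows, without counts over all genes for the thresholds of 1.5-fold and 4-fold. Higher than LPS with CRL1505, the count went from 3 to 4 after the median shift, at 1.5-fold and without probes sharing 18 bases. It was 2 with spike-in scaling and at 4-fold. Over all genes, 1549 of 15573 were higher in the main values. This became 2417 of 15080 after the median shift and 799 of 16066 with spike-in scaling. Without probes sharing 18 bases, 1427 of 14965 were higher. Higher than LPS with CRL1506, the count of the 9 genes went from 0 to 3 at 1.5-fold. It was 1 with the percentile over detected probes, quantile, cyclic loess, the deposited table and the mean over probes. Over all genes, 923 of 16277 were higher in the main values. Among the settings with a count of 1, this ran from 412 of 16242 (deposited table) to 1013 of 16249 (percentile over detected probes). Lower than LPS with CRL1505, the count of the 9 genes went from 1 to 0 after the median shift and at 4-fold. It was 2 with spike-in scaling and at 1.5-fold. Over all genes, 1297 of 15573 were lower in the main values. This became 753 of 15080 after the median shift and 3156 of 16066 with spike-in scaling. Lower with CRL1506, the count of the 9 genes went from 1 to 0 at 4-fold. It was 2 after the median shift, at 1.5-fold and without probes sharing 18 bases. With the mean over probes this count stayed at 1, but *Trem1* took the place of *Fcgr3*, whose 2 probes stood at -1.30 and -0.64. Over all genes, 575 of 16277 were lower in the main values and 872 of 16267 after the median shift. Without probes sharing 18 bases, 557 of 15670 were lower. Higher with CRL1505 than with CRL1506, the count of the 9 genes went from 2 to 5 after the median shift. It was 3 without probes sharing 18 bases, 4 at 1.5-fold and 0 at 4-fold. Over all genes, 1423 of 15756 were higher in the main values and 3517 of 14883 after the median shift. Without probes sharing 18 bases, 1304 of 15153 were higher. Lower between the strains, the count of the 9 genes went from 0 to 1 without probes sharing 18 bases. Pathway genes past 2-fold went from 27 to 55 at 1.5-fold and 3 at 4-fold for CRL1505. The numbers for CRL1505 also moved with the normalization. Of the effectors downstream of *Syk*, 0 to 5 were higher and 1 to 11 lower. Of the other ITAM adapters and ITAM-coupled receptors, 2 to 3 were higher and 5 to 11 lower. For CRL1506, pathway genes past 2-fold went from 20 to 8 with normexp and the deposited table. They were 13 with probes well above background on all arrays, 32 at 1.5-fold and 2 at 4-fold. Between the strains they went from 17 to 33 after the median shift, 26 with spike-in scaling, 46 at 1.5-fold and 2 at 4-fold. Apart from the thresholds, the cause was not tested. No paired analysis was possible because each condition has 1 array.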
